A study of Mus musculus with 6 samples.

Results

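The genes described here are the coactivators Yap1 and Wwtr1 (the gene of TAZ), the 4 TEAD factors Tead1 to Tead4 that carry them to DNA, and 4 genes used as readouts of the pathway, namely Ccn1, Ccn2, Ajuba and Amotl2. They and the lists set beside them below were chosen by name, with earlier results of these data known. They are 10 of the 19933 mouse genes with a probeset of their own on the arrays, and all 10 were measured. The brightest probeset of a gene, by its mean over the 6 arrays, gave the values, and only Tead1 had a further one. The arrays hold RNA of NCU10K, an immortalized line of mouse neural crest cells. Cells were harvested 48 h after transfection with Nedd4 siRNA or with low GC control siRNA, with 3 biological replicates and 1 Affymetrix mouse gene array per replicate in each group. The study used a single Nedd4 siRNA sequence, 1 cell line and no rescue on these arrays, so loss of Nedd4 cannot be told apart from other effects of that siRNA. Cells of both groups received transfection reagent and siRNA and were grown in DMEM with foetal calf serum. Replicates were separate experiments by the submitters' notes, and p-values measure the spread between them.

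In the Hippo pathway the kinases MST and LATS phosphorylate YAP and TAZ, which then stay in the cytoplasm or are degraded. Unphosphorylated YAP and TAZ enter the nucleus, where they bind TEAD proteins and activate transcription. Tension in the actin cytoskeleton and loss of cell contacts favour this nuclear form, and in the mouse both coactivators act in neural crest development. NEDD4 and YAP both recognise proline-rich PY motifs through WW domains. The arrays measured mRNA and hold no information on the amount, phosphorylation or location of the proteins.

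TEAD proteins bind the motif GGAATG, which reads CATTCC on the other strand. The sequence before the annotated start site is shown for the genes whose mRNA changed and for which RefSeq promoter windows (build GRCm38.p6) were matched. Each run below is 250 bases, 5′ to 3′ along the gene, and ends at the base before the start site, with motif letters in capitals. They come from chr9:8004597-8004846 for Yap1, chr3:145649986-145650235 for Ccn1 and chr14:54577662-54577911 for Ajuba, all on the minus strand, and from chr9:102717554-102717803 for Amotl2 and chr7:45215542-45215791 for Tead2 on the plus strand.
Yap1: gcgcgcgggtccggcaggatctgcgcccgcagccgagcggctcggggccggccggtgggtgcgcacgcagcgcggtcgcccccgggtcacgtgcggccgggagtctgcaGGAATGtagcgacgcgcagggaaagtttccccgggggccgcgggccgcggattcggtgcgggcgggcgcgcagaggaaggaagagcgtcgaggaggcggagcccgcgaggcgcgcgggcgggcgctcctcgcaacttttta
Ccn1: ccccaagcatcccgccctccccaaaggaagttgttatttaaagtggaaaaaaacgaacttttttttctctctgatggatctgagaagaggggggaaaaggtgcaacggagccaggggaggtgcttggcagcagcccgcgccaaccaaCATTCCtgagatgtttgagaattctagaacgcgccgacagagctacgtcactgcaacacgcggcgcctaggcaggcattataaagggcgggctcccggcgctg
Ajuba: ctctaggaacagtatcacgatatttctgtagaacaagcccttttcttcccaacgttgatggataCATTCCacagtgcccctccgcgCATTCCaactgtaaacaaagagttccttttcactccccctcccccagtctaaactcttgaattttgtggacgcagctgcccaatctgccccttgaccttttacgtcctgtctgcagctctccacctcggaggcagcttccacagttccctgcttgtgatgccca
Amotl2: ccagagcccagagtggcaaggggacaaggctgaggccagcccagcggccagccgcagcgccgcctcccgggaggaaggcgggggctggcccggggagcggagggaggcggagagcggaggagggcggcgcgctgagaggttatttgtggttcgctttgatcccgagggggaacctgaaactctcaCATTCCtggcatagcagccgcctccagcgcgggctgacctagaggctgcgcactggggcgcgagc
Tead2: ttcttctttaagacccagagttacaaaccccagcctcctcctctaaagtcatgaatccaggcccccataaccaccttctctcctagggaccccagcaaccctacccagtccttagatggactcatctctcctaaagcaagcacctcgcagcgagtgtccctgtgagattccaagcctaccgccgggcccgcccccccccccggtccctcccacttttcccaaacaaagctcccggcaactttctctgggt
The motif was searched on both strands in windows of Yap1, Wwtr1, Tead2, Tead3, Ccn1, Ajuba and Amotl2, 7 of the 10 genes, and 6 of the 7 held it. Over all 27025 genes with a window, 14.4% held it. In the lists described below it was in 4 of 13 further targets with a window, 3 of 7 TEAD cofactors and 3 of 18 kinase core genes. It was in 4 of 15 junction and polarity genes, 1 of 15 STRIPAK genes and 0 of 1 other CCN gene. It began 141 bases before the start site in Yap1, 103 in Ccn1, 65 in Amotl2, and 164 and 186 in Ajuba. It read with the gene in Yap1 and against it in the other 3. Wwtr1 has 2 overlapping windows that both hold the same match, and Tead3 has 3 windows with 2, 1 and 0 matches. The Tead2 window, of the gene that fell, held no match, which says only that these letters are not in this stretch. A match describes the sequence and is not a measured binding site.

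**Figure D1:**
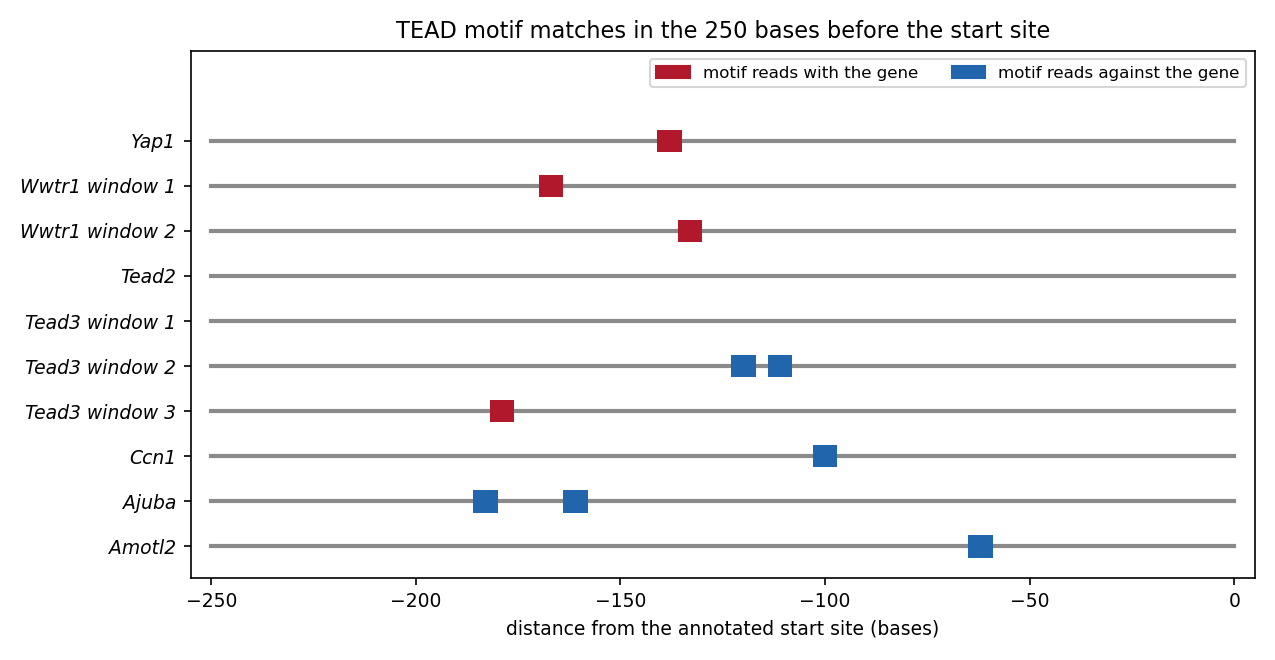
Position of TEAD motif matches (blocks) in each annotated promoter window (grey line) of 7 genes, by distance in bases from the annotated start site. Red blocks read with the gene and blue ones against it. The Tead2 window has no match, Wwtr1 and Tead3 each have more than 1 window, and the Wwtr1 windows hold the same match.

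The values are log2 expression values as the authors deposited them. Array medians ran from 6.28 to 6.33 with Nedd4 siRNA and from 6.31 to 6.35 with control siRNA. Nedd4 mRNA was at 10.45, 10.94 and 10.68 with Nedd4 siRNA, against 12.24, 12.35 and 12.34 with control siRNA, so the knockdown was present on each array. The test was limma's, and a gene passed if its p was under 0.05 once adjusted by Benjamini-Hochberg over the 28440 probesets. Of all probesets 16.1% passed, and of the 19933 named genes 18.7% passed, with 9.62% higher and 9.13% lower in Nedd4 siRNA cells. Of the 10 YAP and TEAD genes 6 passed, 5 higher and 1 lower, and 7 had groups that did not overlap, 5 higher and 2 lower. Over all named genes the groups did not overlap for 31.7%, with 16.1% higher and 15.6% lower. The median log2 fold change of the 10 genes was 0.27, against −0.02 over all named genes. All 10 lay above the dimmest 50% of probesets. By the methods' t-test, which does not share variance between genes as limma does, 1 of the 10 passed, Ajuba, and 7.5% of all probesets did.

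**Figure D2:**
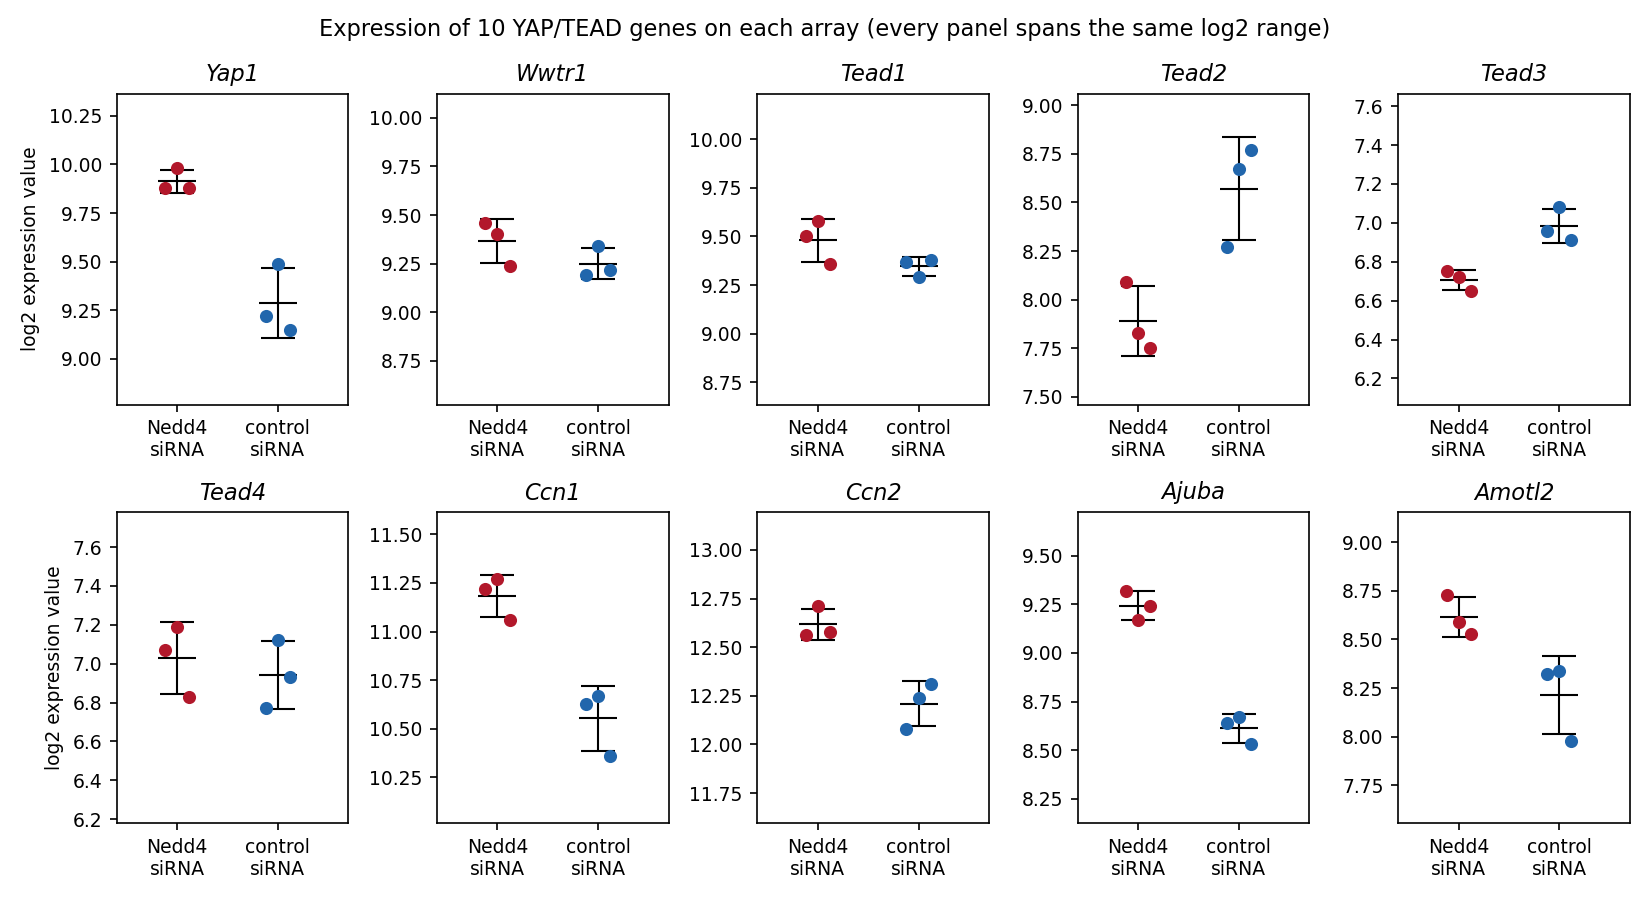
Log2 expression value of each of the 10 genes on each array, with Nedd4 siRNA arrays in red and control siRNA arrays in blue. Bars are the mean and SD of 3 arrays. The groups do not overlap for Yap1, Tead2, Tead3, Ccn1, Ccn2, Ajuba and Amotl2, and overlap for Wwtr1, Tead1 and Tead4.

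Yap1 mRNA was higher after Nedd4 knockdown, whereas that of its paralogue Wwtr1 did not pass the test. Yap1 was at 9.88, 9.98 and 9.88 with Nedd4 siRNA and at 9.22, 9.49 and 9.15 with control siRNA. Every Nedd4 siRNA array lay above every control array, and the control arrays were the more spread. Yap1 averaged 9.91 ± 0.058 with Nedd4 siRNA and 9.29 ± 0.18 with control siRNA (SD, n = 3 arrays each), which is 1.54-fold higher with Nedd4 siRNA. The log2 fold change was 0.63 (SE 0.10, adjusted p = 0.00102) from limma. Wwtr1 was at 9.46, 9.40 and 9.24 with Nedd4 siRNA and at 9.19, 9.34 and 9.22 with control siRNA, and the groups overlapped. Its log2 fold change was 0.12 with a 95% interval of −0.086 to 0.32 (adjusted p = 0.537, limma). A rise of Wwtr1 as large as that of Yap1 lies outside this interval. The Yap1 value minus the Wwtr1 value of the same array was 0.42, 0.58 and 0.64 with Nedd4 siRNA, against 0.03, 0.15 and −0.07 with control siRNA, and the groups did not overlap. The log2 fold change of Yap1 was thus 0.51 above that of Wwtr1 (SE 0.091). With 3 arrays against 3 the smallest p of a two-sided exact permutation test is 0.1, which this difference reached (adjusted p = 0.16 over 8 pairs of paralogues). In the methods' t-test Yap1 missed the threshold (adjusted p = 0.0542).

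Among the TEAD genes, which encode DNA-binding factors with a shared TEA domain, Tead2 fell and no other passed the test. Tead2 was at 8.09, 7.83 and 7.75 in Nedd4 siRNA cells and at 8.27, 8.67 and 8.77 in control siRNA cells. The groups did not overlap, but the lowest control array, replicate 1, came within 0.18 of the highest Nedd4 siRNA array. The log2 fold change of Tead2 was −0.68 (SE 0.13, adjusted p = 0.00342) from limma, 1.60-fold lower in the Nedd4 siRNA cells. Its 95% interval was −0.97 to −0.39, and without control siRNA replicate 1 the change was −0.83. By the methods' t-test Tead2 missed the threshold (adjusted p = 0.132). Tead3 was at 6.75, 6.72 and 6.65 in Nedd4 siRNA cells against 6.96, 7.08 and 6.91 in control siRNA cells. Each Nedd4 siRNA array was below each control array, yet Tead3 just missed the threshold, at −0.28 on the log2 scale (SE 0.088, adjusted p = 0.051, limma). It passed under 7 of 17 alternative settings, among them quantile normalization (−0.26, adjusted p = 0.0378) and each filter on dim probesets.

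Tead1, known for its part in heart muscle, was at 9.50, 9.58 and 9.36 with Nedd4 siRNA against 9.37, 9.29 and 9.38 with control siRNA. Its log2 fold change was 0.13 (95% interval −0.064 to 0.33, adjusted p = 0.439, limma), and its other probeset gave 0.15 (adjusted p = 0.566). Tead4 was at 7.07, 7.19 and 6.83 with Nedd4 siRNA against 6.77, 7.12 and 6.93 with control siRNA. The groups overlapped for both genes, and the Tead4 change was 0.09 (95% interval −0.16 to 0.34, adjusted p = 0.746, limma). Within arrays the log2 fold change of Tead2 was 0.81 below that of Tead1 (SE 0.19) and 0.77 below that of Tead4 (SE 0.16). That of Tead3 was 0.41 below Tead1 (SE 0.090) and 0.37 below Tead4 (SE 0.11). For these 4 pairs the groups did not overlap (exact permutation test, two-sided, p = 0.1, adjusted p = 0.16). They overlapped for Tead2 with Tead3 (p = 0.2) and for Tead1 with Tead4 (p = 0.9, exact permutation test).

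Ccn1, Ccn2, Ajuba and Amotl2, which are commonly read as targets of YAP and TEAD, were all higher after Nedd4 knockdown, and for each the groups did not overlap. Ccn1, formerly Cyr61, encodes a secreted matricellular protein that binds integrins. It was at 11.22, 11.27 and 11.06 in Nedd4 siRNA cells and at 10.63, 10.67 and 10.36 in control siRNA cells. Replicate 3 was the lowest array in each group. Ccn1 averaged 11.18 ± 0.11 in Nedd4 siRNA cells and 10.55 ± 0.17 in control siRNA cells (SD, n = 3 arrays each), and the log2 fold change was 0.63 (SE 0.10, adjusted p = 0.00117) from limma. Ccn2, formerly Ctgf, encodes the related connective tissue growth factor. It was at 12.56, 12.71 and 12.58 in Nedd4 siRNA cells and at 12.08, 12.24 and 12.31 in control siRNA cells. All Nedd4 siRNA arrays lay at least 0.25 above the highest control array. The log2 fold change of Ccn2 was 0.41 (SE 0.094, adjusted p = 0.00951, limma), or 1.33-fold. The rise of Ccn1 was 0.22 larger than that of Ccn2 (SE 0.16), with overlapping groups (two-sided exact permutation test, p = 0.2). Both genes are also known targets of SRF, a factor under control of actin, and whether it bears on their rise was not tested.

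Ajuba and Amotl2 encode proteins that act back on the pathway. AJUBA is a LIM protein that holds LATS kinases at cell junctions and so restrains them, whereas AMOTL2 is an angiomotin that retains YAP and promotes LATS activity. Ajuba was at 9.32, 9.17 and 9.24 with Nedd4 siRNA and at 8.64, 8.67 and 8.53 with control siRNA. The distance between the groups was 0.50 at its narrowest, with an SD of 0.075 with Nedd4 siRNA and 0.074 with control siRNA (n = 3 arrays each). Its log2 fold change was 0.63 (SE 0.088, adjusted p = 0.000352) from limma, 1.55-fold, and it passed under all 17 alternative settings, with adjusted p of up to 0.0211. Amotl2 was at 8.73, 8.59 and 8.53 with Nedd4 siRNA and at 8.32, 8.34 and 7.98 with control siRNA. Control replicate 3 lay well below the other control arrays. The log2 fold change was 0.40 (SE 0.11, 95% interval 0.16 to 0.64, adjusted p = 0.0247, limma). Amotl2 did not pass without control siRNA replicate 3 (0.29, adjusted p = 0.0896) or without Nedd4 siRNA replicate 1 (0.35, adjusted p = 0.132).

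**Figure D3:**
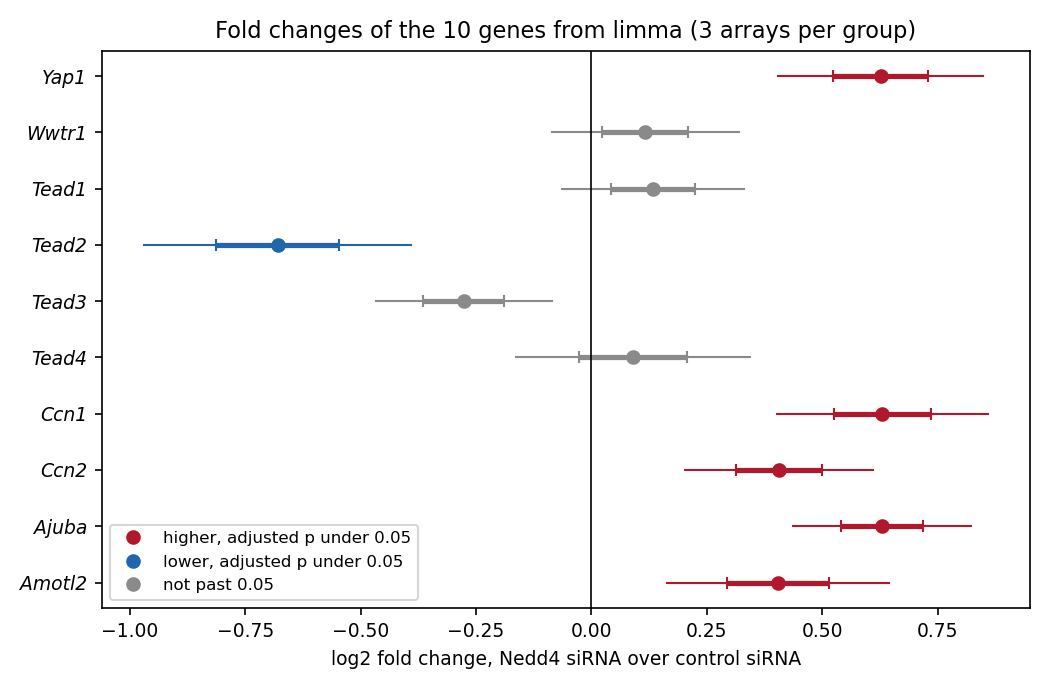
Log2 fold change of each gene in Nedd4 siRNA over control siRNA cells from limma. Points are estimates from 3 arrays per group, thick bars with caps the SE and thin bars the unadjusted 95% interval. Red is higher, blue lower and grey not past an adjusted p of 0.05. Values run from −0.68 for Tead2 to 0.63 for Yap1, Ccn1 and Ajuba. The interval of Tead3 lies below 0 although its adjusted p is 0.051.

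Across the 17 alternative settings no gene of the 10 changed direction. Most changes of test, threshold or probeset set leave the log2 fold change itself as it was, so they could not turn it. Only other scalings, array weights, arrays left out and, for Tead1, the mean of its probesets could. Yap1, Ccn1, Ccn2 and Tead2 each passed under 16 of the 17 and missed only by the methods' t-test, with adjusted p of 0.0542, 0.061, 0.0746 and 0.132. Amotl2 passed under 13 of 17, and Wwtr1, Tead1 and Tead4 under 0. At an adjusted p under 0.01 the count was 5 of 10, without Amotl2, where 2881 of all 28440 probesets passed.

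**Figure D4:**
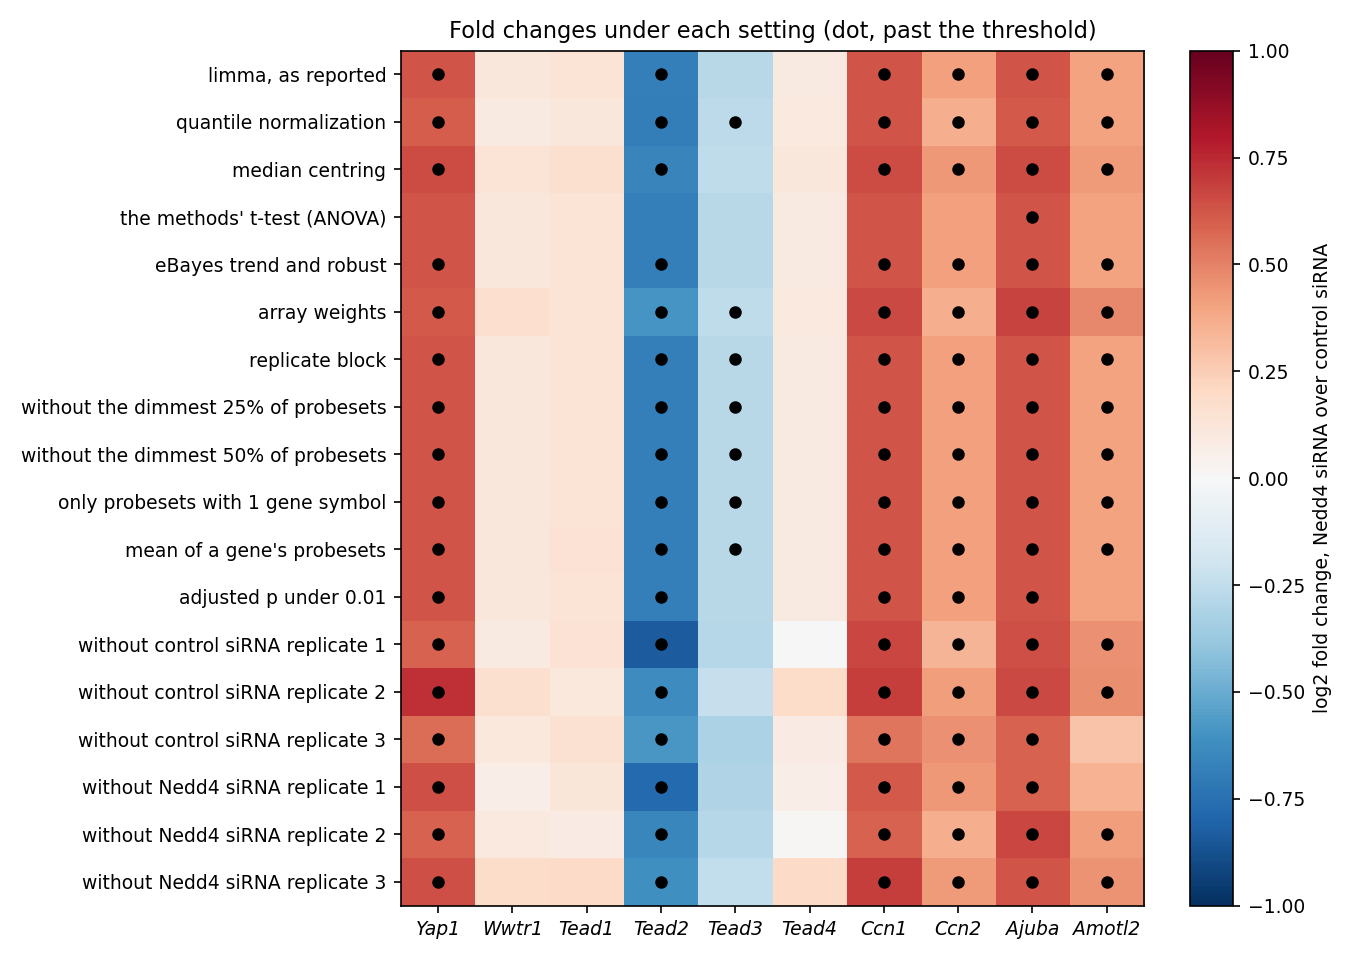
Log2 fold change of each gene (columns) in Nedd4 siRNA over control siRNA cells under each setting (rows), from blue (lower) to red (higher). A black dot marks an adjusted p past the threshold. In the row of the methods' t-test the dot is on Ajuba alone, and in no column do red and blue mix. Several rows hold the same fold changes by construction.

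Other genes used as YAP and TAZ targets went both ways. Of 19 further genes often cited as targets 6 were higher and 7 lower, against 18.7% called over all named genes, and the median log2 fold change was −0.03. Crim1, a membrane protein that binds BMPs, had 8.98, 8.86 and 8.84 in Nedd4 siRNA cells against 7.66, 7.87 and 7.53 in control siRNA cells. This rise of 1.21 (SE 0.10, adjusted p = 9.35e-06, limma) was the largest of the list. Ccdc80, a secreted matrix protein gene (0.80, adjusted p = 7.01e-05), and Asap1, a regulator of ARF GTPases (0.66, adjusted p = 0.000397), also rose. In the other direction, Igfbp3, which encodes a carrier of insulin-like growth factors, had 7.37, 7.57 and 7.46 in Nedd4 siRNA cells against 8.29, 8.60 and 8.34 in control siRNA cells. Its log2 fold change was −0.94 (SE 0.10, adjusted p = 6.00e-05). The growth factor gene Tgfb2 (−0.52, adjusted p = 0.000838) and the tissue factor gene F3 (−0.51, adjusted p = 0.00179) fell too. Ankrd1, a much used reporter of YAP, had 0.23 (adjusted p = 0.143) and the receptor kinase gene Axl 0.08 (adjusted p = 0.681). Ankrd1 was dim, at 5.75, 5.82 and 5.83 in Nedd4 siRNA cells against 5.69, 5.61 and 5.41 in control siRNA cells. Its mean lay at percentile 34.5 of all probesets, whereas Axl lay at percentile 96.8. The 95% interval of the Ankrd1 change was 0.02 to 0.44 (limma). A rise like the 0.63 of Yap1, Ccn1 and Ajuba lies outside it, and one like the 0.41 of Ccn2 or the 0.40 of Amotl2 inside. Among dim genes of the junction list, Fat4 at percentile 35.8 passed (0.72, adjusted p = 0.000384, limma), while Amot at percentile 24.4 did not. Whether dimness lowered the Ankrd1 change was not tested. Of the 19 genes 7 lay below the median signal. By the methods' t-test 8 of the 19 passed, 5 higher and 3 lower, where 7.5% of all probesets passed. Such targets were mostly defined in other cells, and whether this bears on the values here was not tested.

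TEAD cofactors showed opposed changes within the Vestigial-like family, whose members compete with YAP for TEAD or act as its partners. Vgll3 was at 9.90, 10.25 and 9.75 in Nedd4 siRNA cells against 10.75, 10.88 and 10.74 in control siRNA cells. Its log2 fold change was −0.82 (SE 0.12, adjusted p = 0.000468) from limma. Vgll4, an antagonist of YAP at TEAD, was at 10.43, 10.49 and 10.22 in Nedd4 siRNA cells against 9.56, 9.90 and 9.82 in control siRNA cells. It rose by 0.62 (SE 0.11, adjusted p = 0.00188). For each gene the groups did not overlap. Irf2bp2, a cofactor that binds VGLL4, also rose (0.37, adjusted p = 0.0182) but did not pass without control siRNA replicate 1 or 3, or without Nedd4 siRNA replicate 1 or 2. In all 2 of 7 measured cofactors were higher and 1 lower, beside 18.7% called over all named genes. By the methods' t-test 0 of the 7 passed, where 7.5% of all probesets passed. By that test 4 of the 7 had an unadjusted p under 0.05, as did 6366 of the 28440 probesets.

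Of 18 measured genes of the Hippo kinase core and its scaffolds 8 were higher and 3 lower, with a median log2 fold change of 0.28, where 9.62% of all named genes were higher and 9.13% lower. In this list 11 genes had every Nedd4 siRNA array above every control array and 3 the reverse, where all named genes had 16.1% and 15.6%. Mob1b and Mob1a, which encode paired activators of LATS kinases, changed in opposite directions. Mob1b was at 10.37, 10.27 and 10.42 in Nedd4 siRNA cells against 9.33, 9.29 and 9.46 in control siRNA cells (0.99, SE 0.090, adjusted p = 1.50e-05, limma). Mob1a was at 8.63, 8.67 and 8.69 in Nedd4 siRNA cells against 9.01, 9.15 and 9.36 in control siRNA cells (−0.51, SE 0.10, adjusted p = 0.00358). Wwc2, a relative of the LATS activator KIBRA, rose (0.83, adjusted p = 0.000244), as did the upstream kinase genes Taok1 (0.64, adjusted p = 0.000286) and Taok3 (0.63, adjusted p = 0.000901). Tnik, a kinase of the MAP4K family, fell (−0.68, adjusted p = 0.000534). Lats2 rose by 0.55 (SE 0.11, adjusted p = 0.00456), with means of 8.52 ± 0.15 in Nedd4 siRNA cells and 7.97 ± 0.18 in control siRNA cells (SD, n = 3 arrays each), and is also one of the 19 targets. Lats1 had 0.18 (adjusted p = 0.213). Nf2, which encodes merlin (0.67, adjusted p = 0.00582), and Stk4, which encodes the kinase MST1 (0.42, adjusted p = 0.00639), rose. The methods' t-test passed 4 of the 18, beside 7.5% of all probesets, and Lats2, Nf2, Stk4, Mob1a and Taok3 were not among them.

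Of 20 measured junction and polarity genes that act on the pathway 6 were higher and 0 lower, with a median log2 fold change of 0.17, against 9.62% higher and 9.13% lower over all named genes. Of the 20, 9 had every Nedd4 siRNA array above every control array and 0 the reverse, where all named genes had 16.1% and 15.6%. Limd1, an AJUBA relative that also binds LATS, was at 9.90, 9.78 and 9.86 in Nedd4 siRNA cells against 9.07, 9.22 and 8.56 in control siRNA cells (0.90, SE 0.14, adjusted p = 0.000811, limma). Fat4, an atypical cadherin (0.72, adjusted p = 0.000384), its relative Fat1 (0.46, adjusted p = 0.00408), the tight junction scaffold gene Tjp1 (0.61, adjusted p = 0.000524) and the polarity gene Llgl2 (0.40, adjusted p = 0.0127) rose. Amot and Amotl1, the other angiomotin genes, had −0.04 (adjusted p = 0.878) and −0.07 (adjusted p = 0.788). Amot was dim, with a mean at percentile 24.4 of all probesets, so its flat value says little, while Amotl1 lay at percentile 65.6. Fat4 was dim too, at percentile 35.8, and 8 of the 20 genes lay below the median signal. The methods' t-test did not pass Limd1, Fat1 and Llgl2, and Llgl2 was also lost without control siRNA replicate 3 or Nedd4 siRNA replicate 1.

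STRIPAK, a phosphatase complex that opposes MST kinases, had 2 of 18 measured genes higher and 1 lower, close to the 18.7% called over all named genes. Yet 7 of the 18 had every Nedd4 siRNA array above every control array and 1 the reverse, where all named genes had 16.1% and 15.6%. The median log2 fold change of the 18 was 0.10. The scaffold genes Strn3 (0.59, SE 0.098, adjusted p = 0.00115) and Strn (0.47, SE 0.097, adjusted p = 0.00506) rose, and Fgfr1op2 fell (−0.63, SE 0.095, adjusted p = 0.000574) from limma. Among the 4 other CCN genes Ccn5 rose (0.72, SE 0.092, adjusted p = 0.000181), with means of 7.14 ± 0.090 in Nedd4 siRNA cells and 6.42 ± 0.098 in control siRNA cells (SD, n = 3 arrays each). The other 3 did not pass. In the methods' t-test Strn missed the threshold (adjusted p = 0.0712). Over the 6 lists together 24 of 85 measured genes were higher and 12 lower, and over all named genes 9.62% were higher and 9.13% lower.

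**Figure D5:**
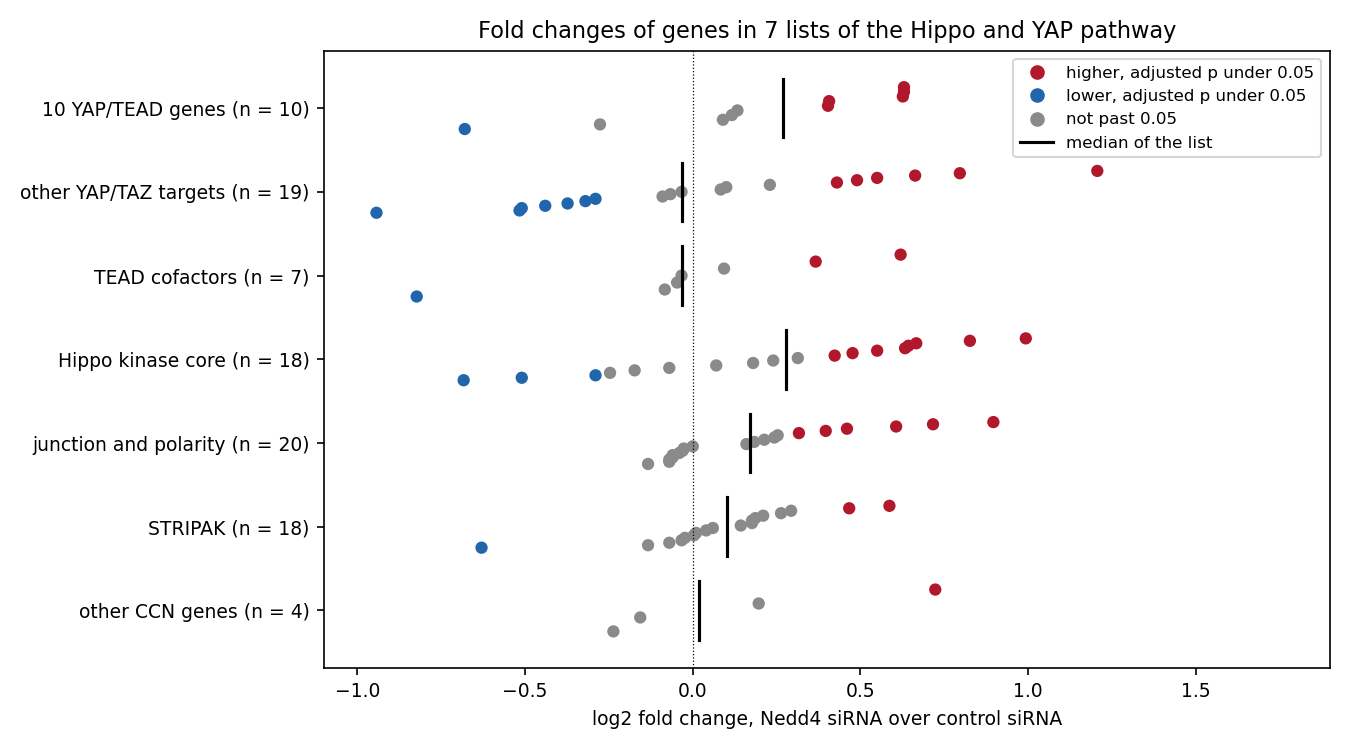
Log2 fold change in Nedd4 siRNA over control siRNA cells of each measured gene (points) in the 10 YAP and TEAD genes and 6 further lists. Red genes rose, blue genes fell and grey genes did not pass limma's test. Black lines are list medians, from −0.03 for the other targets and the cofactors to 0.28 for the kinase core. Lats2 is in both the target and the kinase list.

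Markers of cell types also differed between the groups, and their part in these results was not tested. Of 11 measured neural crest and glial markers 5 were lower and 1 higher in Nedd4 siRNA cells, while over all named genes 9.13% were lower and 9.62% higher. Erbb3 (−1.14), Foxd3 (−0.54), Tfap2a (−0.51), Sox10 (−0.43) and Snai2 (−0.33) fell and Sox9 (0.66) rose, with adjusted p of 0.0293 or less from limma. The methods' t-test did not pass Sox10 and Snai2, and Snai2 was also lost without control siRNA replicate 3 or without any 1 of the Nedd4 siRNA replicates. The mean log2 value of the list per array was 8.83 to 8.93 with Nedd4 siRNA and 9.09 on each array with control siRNA. Of 15 smooth muscle, pericyte and fibroblast markers 4 were higher, 1 was lower and 10 did not pass, and 6 lay below the median signal. Array means of these markers were 7.54 to 7.61 with Nedd4 siRNA against 7.34 to 7.44 with control siRNA. With 10 of the 15 not past the threshold, these means do not speak for the whole list. Of 27 epithelial, endothelial, leukocyte, neuronal and skeletal muscle markers 2 were higher and 0 lower, and 23 lay below the median signal. The higher ones were Tubb3 (0.35) and Map2 (0.36), neuronal genes named after their values were seen. In bulk RNA fewer cells of a type and less RNA per cell cannot be told apart.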

How the data were processed

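Total RNA (300 ng) of 3 Nedd4 siRNA and 3 control siRNA cultures was hybridised to Affymetrix mouse gene arrays. The authors made the deposited log2 values with Partek Genomics Suite (6.5 by the submitters' processing notes), which corrected background by RMA, corrected for GC content and averaged the probes of a set. Values of 28440 probesets have 2 decimals, and the scans were not used here. Array number limits the precision. Genes were named from the 21780 probesets with 1 gene symbol in GEO's platform annotation.

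Groups were fitted with limma 3.58.1 in R 4.3.3 (lmFit, eBayes, no covariate), which replaced the methods' t-test, an ANOVA, as the main test, and tested on simulated data. Paralogue differences within arrays had exact permutation tests in SciPy 1.17.1. Python 3.11.15 and Matplotlib 3.10.9 served for counts and figures. Members and lists were chosen with earlier results of these data known.

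Named were all members, Nedd4, up to 5 genes with the smallest p that pass per pathway list, neural crest markers that pass, and the 3 nearest patterns of 2 members. Lats1, Lats2, Stk4, Nf2, Mob1a, Ankrd1, Axl, F3, Myof, Amot, Amotl1, Tubb3 and Map2 fall outside this rule and were chosen after seeing their values. Of 92 listed pathway genes 85 were measured. Protein features were not analysed here.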

Additional observations from a re-analysis of the deposited data

How the results depend on the processing

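Directions of the 10 genes held under all alternatives. These were other scalings (quantile, median) and other tests (the methods' t-test, robust eBayes with trend, array weights, the replicate block, an adjusted p under 0.01). They were also other probeset sets (without the dimmest 25% or 50%, with 1 symbol, averaged per gene) and each array left out. Other tests except array weights, and other probeset sets except the average for Tead1, keep the log2 fold changes of the main fit. Those settings could not turn a direction. The methods' t-test lowered the calls most, to 2134 of 28440 probesets, 1 of the 10 genes, 4 in the kinase core, 8 of the other targets and 0 of the cofactors (4 at an unadjusted p under 0.05). Its log2 fold changes are those of limma, and Yap1 (0.63), Ccn1 (0.63), Ccn2 (0.41), Amotl2 (0.40) and Tead2 (−0.68) missed its threshold. At an adjusted p under 0.01, 2881 probesets passed and Amotl2 (0.40) did not. Tead3 passed with quantile normalization (−0.26), array weights (−0.25), the replicate block, either filter on dim probesets, only probesets with 1 symbol, or the mean of a gene's probesets (−0.28 in each of the last 5). STRIPAK had 5 calls with array weights or without the dimmest 50%, and the other CCN genes 2 with array weights or quantile normalization. The cause of these changes in calls was not tested.

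Leaving out each array gave 2962 to 4312 calls, the lowest without Nedd4 siRNA replicate 1, and an Amotl2 change of 0.29 to 0.47. The near-zero changes of Amot (−0.11 to 0.0017, positive without control siRNA replicate 1) and Amotl1 (−0.12 to 0.027, positive without control siRNA replicate 2) turned, as did the difference of Tead1 minus Tead4 (−0.075 to 0.14, negative without control siRNA replicate 2). With the replicate block 4962 probesets and 7 of the 10 genes passed, the added gene being Tead3. Deviations of same-numbered arrays correlated at −0.012, 0.47 and −0.013, and not every array correlated best with its own number. Nedd4 siRNA replicate 3 correlated at 0.42 with control siRNA replicate 1 and at −0.43 with control siRNA replicate 2. The repeat numbers were thus not taken as pairs, and the main fit took no account of deviations shared between groups.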

Other observations

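The genes most like Ajuba and Yap1 over the 6 arrays were sought among all named genes, by the root mean square difference of log2 values centred on each gene's mean. The nearest to Ajuba were Taok1 (0.025), an upstream kinase of the same pathway, the myosin gene Myo1e (0.031) and Slc49a4 (0.037). The nearest to Yap1 were the nuclear envelope gene Lemd2 (0.034), Nipsnap2 (0.034) and Mllt11 (0.039). Both sets mostly follow the difference between the siRNA groups, since the measure uses the same arrays. Fold changes near those of Ajuba and Yap1 follow from this choice and are no separate result. On the log2 scale they lay between 0.58 for Lemd2 and 0.66 for Myo1e, with adjusted p of 0.00194 or less from limma. By the methods' t-test Lemd2 (adjusted p = 0.0676) and Mllt11 (adjusted p = 0.0515) did not pass.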
